A study of Mus musculus with 816 samples.

Results

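Interferon beta (IFNb) applied alone for 24 h to cultured mouse microglia is described here from 10 cultures, out of 816 samples in the whole series. The members were taken from the treatment and time given for each culture, so that no measured value entered the choice, and they were set against the 40 untreated cultures of the same time point. Every culture held primary neonatal mouse microglia from a commercial supplier, grown in 96-well plates and given fresh medium with or without the stimulus. RNA was read from the 3′ ends of transcripts, and the deposited values are reads per 1 M mapped reads (CPM) with no correction for transcript length, so a level is compared here between cultures and not between genes.

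IFNb was given at 0.0001 µg/µl. The 10 IFNb cultures lay on 3 culture plates and came from 2 lots of cells: 3 on plate MG160901 (lot March15), 3 on plate MGm160926A (lot Feb15) and 4 on plate MGm161010A (lot March15). The same plates held 16 of the untreated cultures, and the other 24 lay on 3 further plates, of which MGm161010B held another lot, May16. The term lot stands for the source named for each culture (Sciencell_Feb15, Sciencell_March15 or Sciencell_May16), which is read here as a lot of cells. The sex of the source animals was not given. Wells of 1 lot share their source. With plate as a fixed block, the p-values below measure mainly the spread between wells within a plate. They say little about how the effect varies between plates or lots. On plate MG160901 the 3 untreated wells were all at the edge and the 3 IFNb wells in the middle, so that well position and treatment cannot be told apart on that plate. In bulk cultures of this kind, a change in the number of cells and a change in RNA per cell cannot be told apart. Further groups serve as comparison: 8 cultures with interferon alpha (IFNa, 0.0008 µg/µl, a higher dose) and 9 with interferon gamma (IFNg, 0.0001 µg/µl) at 24 h, and 4 with IFNb at 72 h beside 25 untreated cultures of that time.

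Read depth was inferred by taking the most frequent value above 0 in each culture as 1 read. It ran from 1.37 to 11.2 M per IFNb culture and from 1.09 to 15 M per untreated culture. The labelled cell type was checked against 9 microglial markers. Csf1r, Cx3cr1, Fcrls, Trem2 and Tyrobp had untreated medians of 3927, 380, 524, 806 and 940 CPM, whereas 2 markers of microglia in the living brain were low, P2ry12 at 3.49 and Tmem119 at 14.6 CPM. Markers of neutrophils, T and NK cells, B cells and erythrocytes were near 0, with no list reaching a sum of 10 CPM in any IFNb or untreated culture at 24 h. Gfap, an astrocyte marker, was listed at 0 in all 10 IFNb cultures, but the 8 astrocyte markers together summed to 8.62 to 31.4 CPM there. Sums in IFNb cultures were 14.7 to 119 CPM for oligodendrocyte, 44.3 to 97.6 CPM for endothelial and 9.89 to 41.1 CPM for monocyte markers. In untreated cultures these 3 sums reached 87.1, 187 and 87.5 CPM. Smooth muscle and fibroblast markers varied widely among wells, with sums from 0.651 to 1281 CPM in untreated and from 5.00 to 800.0 CPM in IFNb cultures.

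Type I interferons, to which IFNb and IFNa belong, bind a receptor made of IFNAR1 and IFNAR2. The receptor's kinases JAK1 and TYK2 activate transcription factors, among them STAT2, which join IRF9 and bind interferon-stimulated response elements (ISRE) near the genes they switch on. These genes include proteins that block viral replication, sensors of viral RNA and DNA, antigen presentation and chemokines, and a set of inhibitors that end the signal. IFNg uses a receptor of its own, and its signal mainly acts through another element (GAS). In the brain, microglia both make and respond to type I interferon, and its signature is known from infection, injury and ageing.

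Stretches of 30 bases around ISRE letters are shown for 6 genes that rise with IFNb below, because they hold the letters that the pathway's own factors are known to bind. They were taken from the RefSeq promoter windows of GRCm38.p6, which run from 250 bases before to 50 bases after each start site. Each is printed 5′ to 3′ on the strand where the letters GAAANNGAA were found, with those 9 letters in capitals. The windows of Ifit3, Ifit3b, Ifit1 and Isg15 held 3 matches each, of which 1 per gene is printed. The first pair, upstream of Ifit3 and Ifit3b, is identical over all 30 bases.
Ifit3, chr19:34583416-34583445, minus strand: cagtgtttgtGAAAGGGAAgaggaaagtag
Ifit3b, chr19:34607812-34607841, minus strand: cagtgtttgtGAAAGGGAAgaggaaagtag
Ifit1, chr19:34640794-34640823, minus strand: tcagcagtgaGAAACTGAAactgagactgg
Isg15, chr4:156200865-156200894, minus strand: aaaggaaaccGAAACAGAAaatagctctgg
Cxcl10, chr5:92349083-92349112, minus strand: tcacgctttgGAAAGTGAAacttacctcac
Gbp2, chr3:142620594-142620623, minus strand: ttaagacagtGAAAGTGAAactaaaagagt

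The centres of these stretches lie 98, 130, 80, 62, 209 and 54 bases before the RefSeq start sites of Ifit3, Ifit3b, Ifit1, Isg15, Cxcl10 and Gbp2. The letters occur on either strand in 8.62% of all 22862 windows of the table. Of the 15 genes with the largest rise, 13 had a single window, and 7 of these held the letters: Ifit3, Ifit3b, Ifit1, Isg15, Rsad2, Phf11a and Klrk1. Ccl8, Slfn4, Slfn1, Cmpk2, Ms4a4c and Irf7 held none in their windows. All raised genes were not compared with the rest, since 75.2% of the genes tested had a window, below the coverage required for such a comparison. A match is a match of letters, and binding was not measured.

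IFNb changed the level of 1487 of the 11594 genes tested, and the rises were larger than the falls. A gene was called when its adjusted p was under 0.05 (limma on log2(CPM + 1), with plate as a block) and its log2 fold change was at least 1 in either direction. By this rule 567 genes were higher (4.89% of genes tested) and 920 were lower (7.94%). These shares are the background for the counts of each list below. The median change was 1.75 among genes called higher and -1.33 among genes called lower, on the log2 scale. Of the higher genes 53 rose by at least 4 on that scale, and of the lower genes 1 fell by as much. Across all genes tested, every IFNb culture lay above every untreated culture for 185 genes (1.6%) and below every one for 16 genes (0.138%), of which 183 and 16 were also called. The 3 plates, each taken alone, gave the called direction for 558 of the 567 higher genes and 852 of the 920 lower genes. These plates also entered the fit, so that agreement is in part set by the call. Among all genes tested 5392 (46.5%) had the same direction on all 3 plates. The median of all genes tested stood at -0.20. With a pseudocount of 5 in place of 1 the counts were 415 higher and 356 lower, which moved the share of rises among calls from 38% to 54%.

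**Figure D1:**
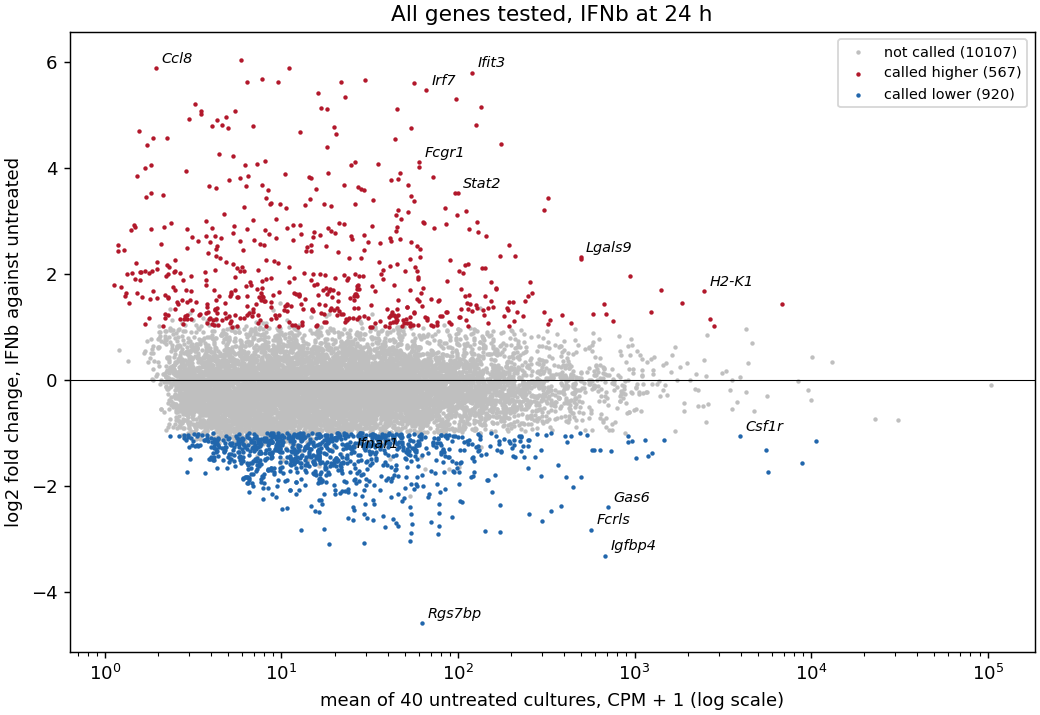
Each point is 1 of 11594 genes, with the mean of the 40 untreated cultures (CPM + 1, log scale) on the x axis and the log2 fold change with IFNb at 24 h on the y axis. The 567 genes called higher (red) reach beyond 5, whereas of the 920 called lower (blue) a single gene, Rgs7bp, lies below -4.

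The largest rises fell on antiviral genes, schlafens and a chemokine. Ifit3, which binds viral RNA together with its relatives, ran from 16.3 to 324 CPM (median 104) in untreated cultures and from 2754 to 5507 CPM (median 3425) with IFNb. The groups did not overlap, and the fitted change was 55.7-fold (log2 5.80, SE 0.18, limma adjusted p = 1.07e-32). Ccl8, a chemokine for monocytes, was at or below 5.39 CPM in every untreated culture and between 56.5 and 201 CPM with IFNb, a log2 rise of 5.88. Slfn4 and Slfn1, schlafens of myeloid cells, rose by 5.88 and 5.67, the former from a median of 7.45 to 419 CPM. Mx1, a dynamin-like antiviral GTPase, rose from a median of 13.5 to 668 CPM (log2 5.62), again with no overlap between the groups. Others of the 15 were Cmpk2 (5.66), Ms4a4c (5.63), Ifit2 (5.63), Ifit3b (5.60), Phf11a (5.41), Isg15 (5.34), Rsad2 (5.31), Klrk1 (5.20) and Ifit1 (5.16). Ifit3 (GRCm38 chr19:34583531-34588731) and Ifit3b (chr19:34607970-34613401) are close copies, and Slfn1 and Slfn4 or Tgtp1 and Tgtp2 are related in sequence, and reads may be split between such copies, which makes the value of each copy uncertain. The unnamed model Gm14446 had a still larger rise (6.03) and was left out by the rule for named genes.

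The untreated level of these genes was not the same on every plate. The median untreated Ifit3 level was 21 and 33.7 CPM on plates MG160831 and MG160901, 102 and 204 CPM on MGm160926A and MGm160926B, and 69.1 and 121 CPM on MGm161010A and MGm161010B. Ifit1 ran from 17.6 CPM on MG160831 to 337 CPM on MGm160926B. The rise of Ifit3 was 6.54 on MG160901, 5.5 on MGm160926A and 5.59 on MGm161010A; among these plates the untreated level was lowest on MG160901.

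**Figure D2:**
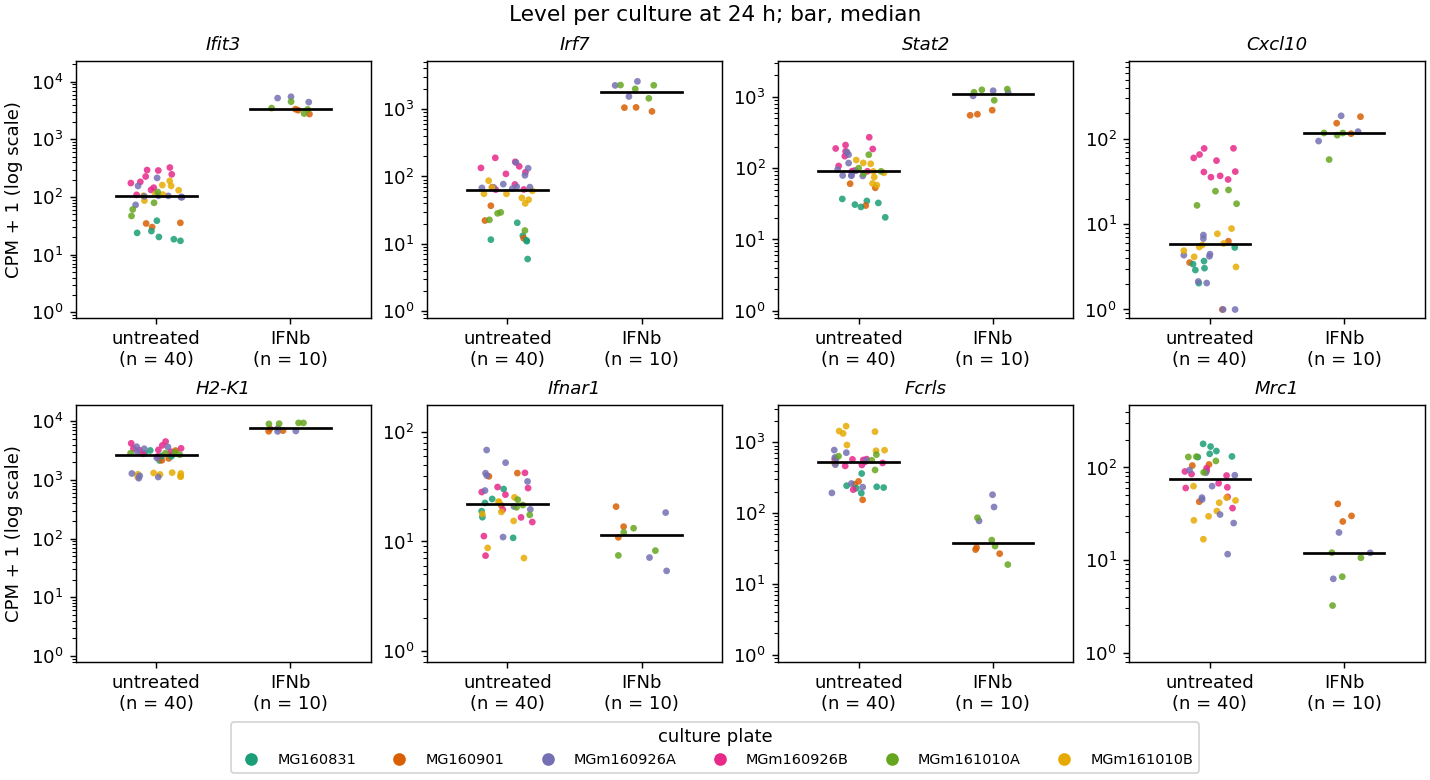
Each panel plots CPM + 1 on a log axis for 1 gene in the 40 untreated and 10 IFNb cultures at 24 h, coloured by culture plate, with the median as a bar. Ifit3, Irf7, Stat2 and H2-K1 do not overlap between the groups, Cxcl10 and Ifnar1 overlap, and Fcrls and Mrc1 are lower with IFNb with some overlap.

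Within the receptor and JAK-STAT list Stat2 and Irf9, which act together on the ISRE, rose, and Ifnar1, the first receptor chain, was called lower. Of 14 genes tested 3 were higher and 1 lower, beside 4.89% higher and 7.94% lower among all genes tested. The single fall is near that share and is not read as a result about the list. Stat2 went from 19.4, 89.2 and 269 CPM (lowest, median and highest untreated culture) to 548, 1085 and 1277 CPM, a log2 change of 3.53 (SE 0.17, limma adjusted p = 3.47e-24). Irf9 rose by 1.58. Ifnar1 ran from 6.05 to 67.4 CPM (median 21) untreated and from 4.38 to 19.8 CPM (median 10.5) with IFNb, a fall of 1.38 on the log2 scale (SE 0.28, limma adjusted p = 9.15e-05). Its groups overlap, and an exact rank-sum test with Bonferroni adjustment and no plate term gave an adjusted p of 1.00. Ifnar2 (log2 0.28), Jak1 (0.09) and Tyk2 (0.53) did not pass.

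Among 8 inhibitors of the pathway tested, 3 were higher. Usp18, which removes ISG15 and blocks the type I receptor, rose from a median of 14.7 to 434 CPM (log2 5.12), with the lowest IFNb culture at 329 and the highest untreated culture at 49.3 CPM. Socs1, an inhibitor of JAK kinases, rose by 2.93 and the phosphatase Ptpn6 by 1.09. The call on Ptpn6 was lost without plate MGm160926A (0.67), with library pool as the block (0.77) and with a pseudocount of 5 (0.99). Socs3 stood at a log2 change of -0.55 with an adjusted p of 0.26 by limma.

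Of 7 interferon regulatory factors and partners tested, 4 were higher. Irf7, the factor that drives late interferon production, ran from 4.95 to 188 CPM (median 62.9) untreated and from 922 to 2575 CPM (median 1762) with IFNb, a 44.3-fold change. Batf2 (2.85), Irf1 (2.31) and Irf2 (1.28) were also higher. Irf8, the lineage factor of microglia, had a log2 change of -0.34 and was not called. Interferon beta itself (Ifnb1) was too low to test, at no more than 0.912 CPM in any IFNb culture and 3.09 CPM in any untreated one.

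The antiviral effectors were the longest list. Of 36 genes tested 32 were higher and none lower, with a median of 3.85, and for 27 of them every IFNb culture lay above every untreated culture. Their summed level ran from 920 to 3306 CPM in untreated cultures and from 20920 to 23410 CPM with IFNb. Among them Rsad2 (viperin) rose by 5.31, Oasl1 by 5.12, Oas3 by 4.55, Ifitm3 by 4.46 and Bst2 (tetherin) by 3.24. Ifitm3, a block to virus entry, went from a median of 154 to 2739 CPM. Among those not called were Apobec3 (-0.43), Ifitm2 (-0.02) and Ch25h (0.65). All 8 OAS and OAS-like genes tested were among the raised genes. All 5 genes of ISG15 conjugation were higher: Isg15 (5.34), Herc6 (3.58), Ube2l6 (3.19), Uba7 (2.84) and Trim25 (1.5).

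Of 15 sensors of nucleic acid tested 11 were higher. The RNA helicases Ddx58 (RIG-I), Ifih1 (MDA5) and Dhx58 (LGP2) rose by 3.12, 3.58 and 3.60, and Ddx58 went from a median of 90.2 to 818 CPM. Zbp1, which binds Z-form nucleic acid, rose by 4.65. The adaptors Mavs (-0.65) and Tmem173 (STING, -0.62) were not called, nor were Mb21d1 (cGAS, 0.99) and Aim2 (0.97). Pyhin1 and Mnda, members of the interferon-inducible Ifi200 cluster with close relatives, rose by 5.13 and 4.77, although their IFNb and untreated ranges overlap through untreated cultures of another lot, as described below.

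All 14 guanylate-binding proteins and immunity-related GTPases tested were higher, with a median of 3.76. These enzymes attack membranes around intracellular microbes. A further 2 genes of the list were not tested. A member near 0 without IFNb, such as Gbp6 with at most 9.01 CPM in any untreated culture, may pass the filter only by rising. The full count is therefore in part set by the filter. Tgtp2 (5.08), Iigp1 (4.81) and Gbp6 (4.69) led, and Gbp2 went from a median of 46.8 to 650 CPM. The PARP and nuclear body list was as uniform. All 10 of its genes were higher with every IFNb culture above every untreated one, at log2 changes from 1.86 (Pml) to 3.04 (Sp100), with Parp9 at 2.81.

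**Figure D3:**
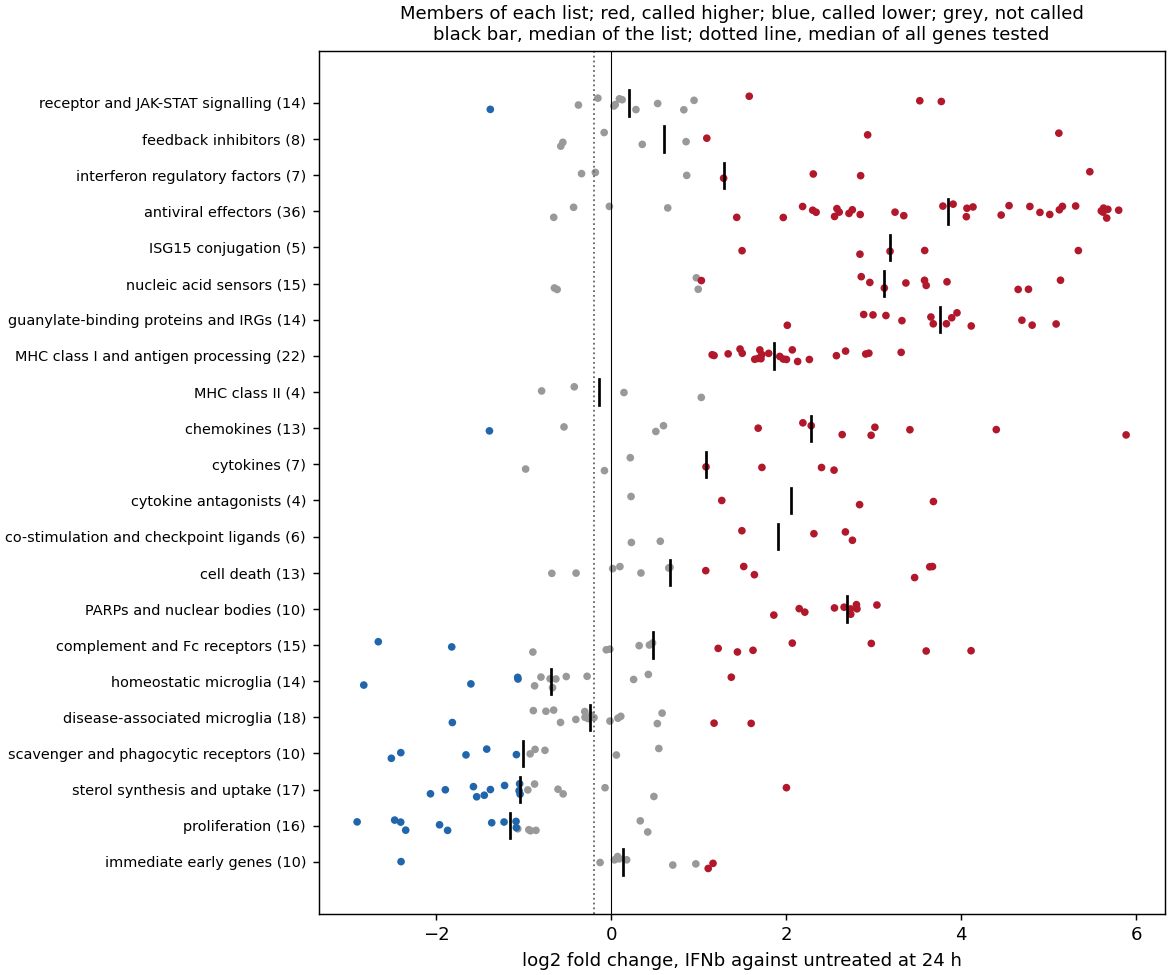
Each point is a tested gene of 1 of 22 lists, at its log2 fold change with IFNb at 24 h, with red for called higher, blue for called lower and grey for not called. The bar is the list's median and the dotted line the median of all genes tested (-0.20), from 3.85 for antiviral effectors to -1.16 for proliferation.

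Antigen presentation split by class. All 22 genes of MHC class I and its peptide supply were higher, with a median of 1.86. The class I heavy chain H2-K1 ran from 1064 to 4494 CPM (median 2687) untreated and from 6691 to 9350 CPM (median 7505) with IFNb. B2m, the shared light chain, rose by 1.70, the peptide transporter Tap1 by 2.91 and the immunoproteasome subunit Psmb8 by 1.71, whereas the largest rises were of the non-classical H2-T23 (3.31) and H2-T22 (2.94). H2 genes are near copies of one another, so that reads may be split among them. For MHC class II 4 of 10 genes could be tested and none passed. H2-Aa stayed at or below 13.1 CPM in every IFNb culture and 12.4 CPM in every untreated one (log2 1.03, limma adjusted p = 0.053). H2-DMa was called lower without plate MGm161010A (-1.27). H2-Aa was called higher in 6 of the other settings, among them without plate MG160901 (1.31) and in middle wells (1.66).

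Of 13 chemokines tested 9 were higher and 1 lower. Cxcl10, which draws activated T cells, ran from 0 to 76.9 CPM (median 4.83) untreated and from 56.5 to 187 CPM (median 117) with IFNb. The lowest IFNb culture lay below the highest untreated ones, all of which were on plate MGm160926B. Its rise was 5.71 and 5.45 on MG160901 and MGm160926A and 2.24 on MGm161010A, where the untreated mean was 20.0 CPM, against 2.63 and 2.72 CPM on the other plates. Ccl2, a monocyte chemokine, was at 275 to 281 CPM in the 3 IFNb cultures of MG160901 and at 15 to 42.4 CPM in the other 7, a fitted rise of 3.41 in all. Ccl12 (2.97), Cxcl9 (3.01), Ccl7 (2.64), Ccl5 (2.29) and Ccl4 (2.19) were also higher, and Cxcl2, a neutrophil chemokine, fell by 1.39, a call that did not hold in 8 of the other settings, among them a pseudocount of 5 and no plate term. By the rank-sum test 4 chemokines were called higher and none lower.

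Of 7 cytokines tested 4 were higher: Il15 (2.55), Tnfsf10 (TRAIL, 2.40), Il18 (1.72) and Il27 (1.08). Tnf, at 26.2 to 410 CPM untreated and 37.3 to 304 CPM with IFNb, had a log2 change of 0.22 and was not called. Il1b (-0.08) and Il1a (-0.98) were not called either, with IFNb medians of 4.15 and 13 CPM. In a list of cytokine antagonists and receptors 3 of 4 tested genes were higher. Il1rn, which blocks the interleukin-1 receptor, ran from 3.32 to 51.1 CPM (median 19.3) untreated and from 115 to 699 CPM (median 219) with IFNb, a 12.8-fold change. The 3 cultures of MG160901 were again the highest, at 495, 591 and 699 CPM. Il18bp, which binds interleukin-18, rose by 2.84, and Il15ra, a chain of the interleukin-15 receptor, by 1.26. The call on Il15ra was lost in 5 of the other settings, among them without plate MGm161010A (1.20) and with a pseudocount of 5 (0.64).

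Co-stimulatory and checkpoint ligands rose for 4 of 6 genes tested: Cd86 (2.76), Cd274 (PD-L1, 2.68), Lgals9 (2.32) and Cd40 (1.49). Cd274 went from 1.49 to 20.5 CPM across untreated cultures to 23.7 to 139 CPM with IFNb, with no overlap. In the cell death list 6 of 13 were higher, among them Mlkl, the executor of necroptosis (3.67), Xaf1 (3.64), Daxx (3.47), Casp1 (1.64) and Gsdmd (1.51), while Ripk3 (0.10) and Casp8 (0.66) were not called.

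Receptors for antibody moved in opposite directions. Fcgr1, the activating high-affinity receptor, ran from 27.6 to 93.3 CPM (median 59.0) untreated and from 622 to 1087 CPM (median 844) with IFNb (log2 4.11, SE 0.13, limma adjusted p = 1.07e-32). Fcgr4, also activating, rose by 2.97. Fcgr2b, the inhibitory receptor, ran from 89.7 to 573 CPM (median 273) untreated and from 23.3 to 71.5 CPM (median 46.5) with IFNb, a fall of 2.66. Neither Fcgr1 nor Fcgr2b overlapped between the groups. Fcgr3 (-0.90) and the shared signalling chain Fcer1g (0.44) were not called. In the same list the complement genes Cfb (3.60), C2 (2.07), C3 (1.62) and the inhibitor Serping1 (1.44) were higher, and C1qa stood at -0.02.

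The falls were smaller and reached into the microglial state. Rgs7bp, an anchor of a G protein regulator, ran from 10.5 to 224 CPM (median 51.9) untreated and from 0 to 3.71 CPM (median 1.61) with IFNb, which was 4.13% of the untreated level on the fitted scale (log2 -4.60, SE 0.38, limma adjusted p = 5.90e-15). Igfbp4, which binds insulin-like growth factors, dropped from a median of 714 to 89.4 CPM (log2 -3.32). Rnase4, a secreted ribonuclease, fell by 2.87 with no overlap, and Sort1, a sorting receptor, by 2.86. Alox5, the first enzyme of leukotriene synthesis, fell by 2.83 with every IFNb culture at or below 3.71 CPM, but the call was lost in the exact rank-sum test (adjusted p = 0.0685 in place of limma's 2.81e-07). Ifi27, an interferon-inducible gene by name, fell by 2.88 from a median of 55.1 to 9.03 CPM and was lower on each of the 3 plates. The remaining largest falls were Col14a1 (-3.10), Aspm (-3.08), Ccnb2 (-2.90) and Fcrls, and the first 3 of these were also lost in the exact rank-sum test (adjusted p = 1.00, 0.156 and 0.0673).

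Of 14 homeostatic microglial genes tested 4 were lower and 1 higher, beside 7.94% lower and 4.89% higher among all genes tested. The single rise is near that share. Fcrls, a scavenger-like Fc receptor, ran from 153 to 1692 CPM (median 524) untreated and from 17.8 to 181 CPM (median 36.9) with IFNb, a fall of 2.83, and 1 IFNb culture lay above the lowest untreated level. Cx3cr1, the fractalkine receptor, fell by 1.60. Csf1r, the receptor on which microglia depend for survival, went from a median of 3927 to 2124 CPM, a log2 change of -1.07 that missed the threshold of 1 with centred cultures (-0.98), without plate MGm161010A (-0.97) and with no plate term (-0.94). Gpr34 (-1.07) was at 6.64 CPM or less at the median. Selplg rose by 1.37 with no overlap. P2ry12 (-0.51) and Tmem119 (-0.70) were not called.

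Of 18 genes of the disease-associated microglial list 2 were higher and 1 lower, beside 4.89% higher and 7.94% lower among all genes tested. These counts are near those shares and are not read as a result about the list. Axl, a phagocytic receptor kinase, rose from a median of 125 to 347 CPM (1.60). Itgax (CD11c) fell by 1.82, and Apoe, at medians of 20920 and 14580 CPM, changed by -0.75 and was not called. Cst7 (1.18) was lost in 6 of the other settings. In the rank-sum test no gene of this list passed.

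The list of scavenger and phagocytic receptors, which also holds the ligands Gas6 and Mfge8, was lower for 5 of 10 genes and higher for none. Gas6, the ligand that bridges AXL and MERTK to dying cells, ran from 306 to 1420 CPM (median 596) untreated and from 53.2 to 147 CPM (median 114) with IFNb, with no overlap, a fall of 2.40 that was near equal on the plates (2.33, 2.44 and 2.42). Axl and its ligand thus moved in opposite directions. Stab1, a clearance receptor, fell by 1.66 without overlap, Mrc1 (the mannose receptor) by 2.51, Marco by 1.42 and Mfge8 by 1.08. Mrc1 is also a marker of perivascular macrophages, and the other 2 tested markers of those cells, Cbr2 (-2.65) and F13a1 (-1.74), were lower as well. The summed level of the 5 markers was 20.6 to 264 CPM untreated and 2.22 to 49.3 CPM with IFNb. The part of such cells in the fall of Mrc1 was not tested.

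Sterol synthesis was lower for 10 of 17 genes, and 1 was higher. Fdft1 and Fdps, enzymes of the path to squalene, fell by 2.07 and 1.90, Cyp51 by 1.57, Sqle by 1.54 and Srebf2, the path's own transcription factor, by 1.45. Fdft1 went from a median of 80.0 to 16.8 CPM. The cholesterol exporter Abcg1 rose from a median of 32.5 to 127 CPM (2.00). The list's median, -1.05, stood beside -0.20 over all genes tested. The count of lower genes was 6 with a pseudocount of 5 or by rank-sum and 7 with cultures centred on their median.

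Genes of the cell cycle were lower in 10 of 16, and the count moved with the plates used. Top2a, a topoisomerase of dividing cells, ran from 7.31 to 822 CPM (median 344) untreated and from 1.11 to 150 CPM (median 59.1) with IFNb, and Mki67 fell by 2.41. The list's median difference was -0.04 on MG160901, -1.21 on MGm160926A and -2.02 on MGm161010A. Without MGm161010A 2 genes were called lower, with plate means as replicates 4, without the IFNb edge well 7, without MG160901 14, and by rank-sum none. Pcna, the clamp of DNA replication, was not called (0.33), and Melk, a kinase of dividing cells, rose by 2.06. Of 10 immediate early genes Dusp1 (1.16) and Fos (1.11) were higher, both lost at a pseudocount of 5, and Egr2 fell by 2.40, a call lost by rank-sum. Among all genes tested 4.89% were higher and 7.94% lower.

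Of 21 tested markers of other cells, over 12 lists, 8 were called (38.1%), against 12.8% of all genes tested, and 3 of the 8 were the perivascular macrophage markers above. Their part in the other results was not tested. Xcr1, a dendritic cell chemokine receptor, rose from no more than 4.05 CPM in any untreated culture to 6.28 to 48.4 CPM (log2 3.45), while Zbtb46, the other dendritic marker tested, was not called (-0.47). A marker as low as Xcr1 without IFNb may pass the filter only by rising, so the 38.1% is in part set by the filter. Kdr, an endothelial receptor, rose by 1.93 while Pecam1 (-0.14) and Flt1 (0.33) did not pass. Of the astrocyte markers Aldh1l1 was higher (1.46) and Aldoc lower (-2.08), at IFNb medians of 6.78 and 1.92 CPM. Among fibroblast and mural markers Acta2 was lower (-1.32, limma adjusted p = 0.044), and in most of the other settings no gene of that list was called. No marker of oligodendrocytes, neurons or monocytes passed.

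IFNa, the other type I interferon of the panel, gave a response that few genes told apart from that of IFNb. The stimuli never shared a plate, the dose of IFNa was higher, and 4 of its 8 cultures came from lot May16, which no IFNb culture at 24 h used, so these values stand side by side through the untreated wells of each plate. Both arms are set against the same 40 untreated cultures. The difference itself passed for 17 genes in favour of IFNb (0.142%) and 3 in favour of IFNa (0.025%) of 11988 tested. The antiviral list held 3 of the 17, its members called higher numbering 31 of 36 under IFNa. All 5 ISG15 genes, 10 of 10 PARP and nuclear body genes and 21 of 22 class I genes were also called higher under IFNa, where 5% of all genes tested were higher and 11.2% lower.

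The differences with the largest size were of several kinds. For Gbp6 IFNb ran from 11.9 to 64.4 CPM and IFNa from 0 to 13.9 CPM (difference 3.98, SE 0.60, limma adjusted p = 2.93e-05), with all 4 May16 cultures of IFNa at 0. Ms4a4b ran from 51.4 to 267 CPM with IFNb and, with IFNa, from 38.8 to 87.4 CPM in lot Feb15 and from 0 to 2.76 CPM in lot May16. Within lot Feb15 alone its difference was 0.03. Fam216a, Abcg2, Slc1a5 and Nostrin differed by 3.44, 2.73, 2.54 and 2.39, with log2 changes of -3.14, -2.87, -3.10 and -2.10 under IFNa and 0.22, -0.10, -0.55 and 0.31 under IFNb. Hal, an enzyme of histidine breakdown, was lower with IFNb by 1.98, and was at or below 0.138 CPM in every untreated May16 culture at 24 h against 37.7 to 222 CPM in the other lots. Within lot Feb15 alone 8 genes passed in each direction, of which 3 and 0 were shared with the full comparison. There Ifit1, for example, differed by 1.63 in favour of IFNb, whereas its stimulated level was 2069 to 2836 CPM with IFNb and 2957 to 3687 CPM with IFNa. Its untreated level was 47.4 to 123 CPM on the plate with IFNb and 293 to 448 CPM on the plate with IFNa.

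**Figure D4:**
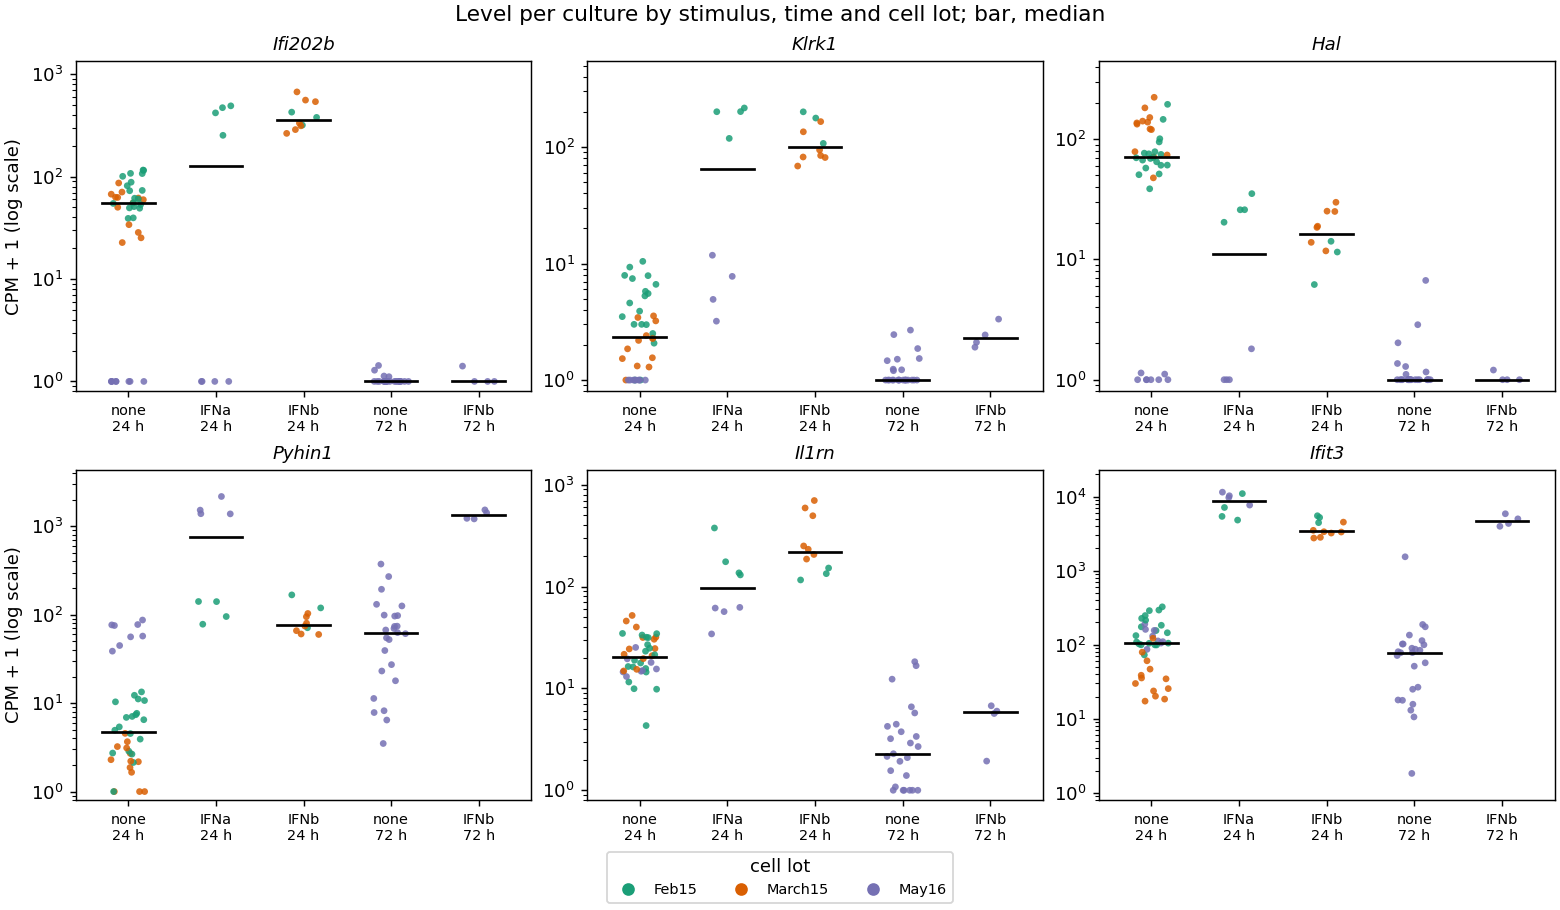
CPM + 1 (log axis) per culture for 6 genes by stimulus and time, coloured by cell lot, with the median as a bar. Ifi202b is at or near 0 in every May16 culture, Klrk1 and Hal are low in that lot, and Pyhin1 is highest in its stimulated cultures. Ifit3 is raised by IFNa in lots Feb15 and May16 and by IFNb in every lot shown.

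IFNb and IFNg differed at many genes. IFNg was applied at the same concentration, and both stimuli were present on plates MG160901 and MGm160926A. The difference passed for 395 genes in favour of IFNb (3.29%) and 455 in favour of IFNg (3.8%). Of the 36 antiviral effectors 24 were higher with IFNb and 1 lower, as were all 5 ISG15 genes and 8 of 15 sensors, with 1 sensor lower. The summed level of the 10 MHC class II genes was 16.3 to 89.2 CPM with IFNb and 2236 to 3596 CPM with IFNg. Of these genes 8 could be tested, more than against untreated cultures because the IFNg cultures lifted some past the filter, so that no count is read from them. In favour of IFNg stood 10 of 15 guanylate-binding proteins and immunity-related GTPases, 14 of which could be tested against untreated cultures. That count too depends in part on which members the stimulated cultures lifted past the filter. On the shared plates alone the counts were 300 and 292.

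Named genes show the size of the split. Slfn4 was at 228 to 577 CPM with IFNb and at 4.49 to 19.4 CPM with IFNg, a difference of 5.37 (SE 0.39, limma adjusted p = 1.04e-18). Isg20, an exonuclease, was at 47.0 to 87.7 CPM with IFNb against 0.270 to 9.06 CPM with IFNg, and Mx2, a relative of Mx1, at 50.0 to 135 CPM against 1.39 to 4.20 CPM. Ms4a4b, Ms4a4c and Oas2 differed by 4.79, 4.56 and 3.41 in the same direction. On the other side H2-Aa, a class II chain, was at 0 to 13.1 CPM with IFNb and at 916 to 1726 CPM with IFNg, a difference of -6.71. Cd74, the class II invariant chain, was at no more than 9.50 CPM with IFNb and at 88.3 to 169 CPM with IFNg. H2-Eb1 (-7.35), H2-Ab1 (-6.33), Serpina3g (-5.90) and H2-DMa (-4.97) completed the largest differences. The feedback inhibitor Socs1 was raised to medians of 44.4 and 825 CPM by IFNb and IFNg. Naaa, a lysosomal hydrolase, was at 1.89 to 11.5 CPM with IFNb and 20.6 to 172 CPM with IFNg, while Ifit3 was at 2754 to 5507 CPM against 196 to 581 CPM.

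**Figure D5:**
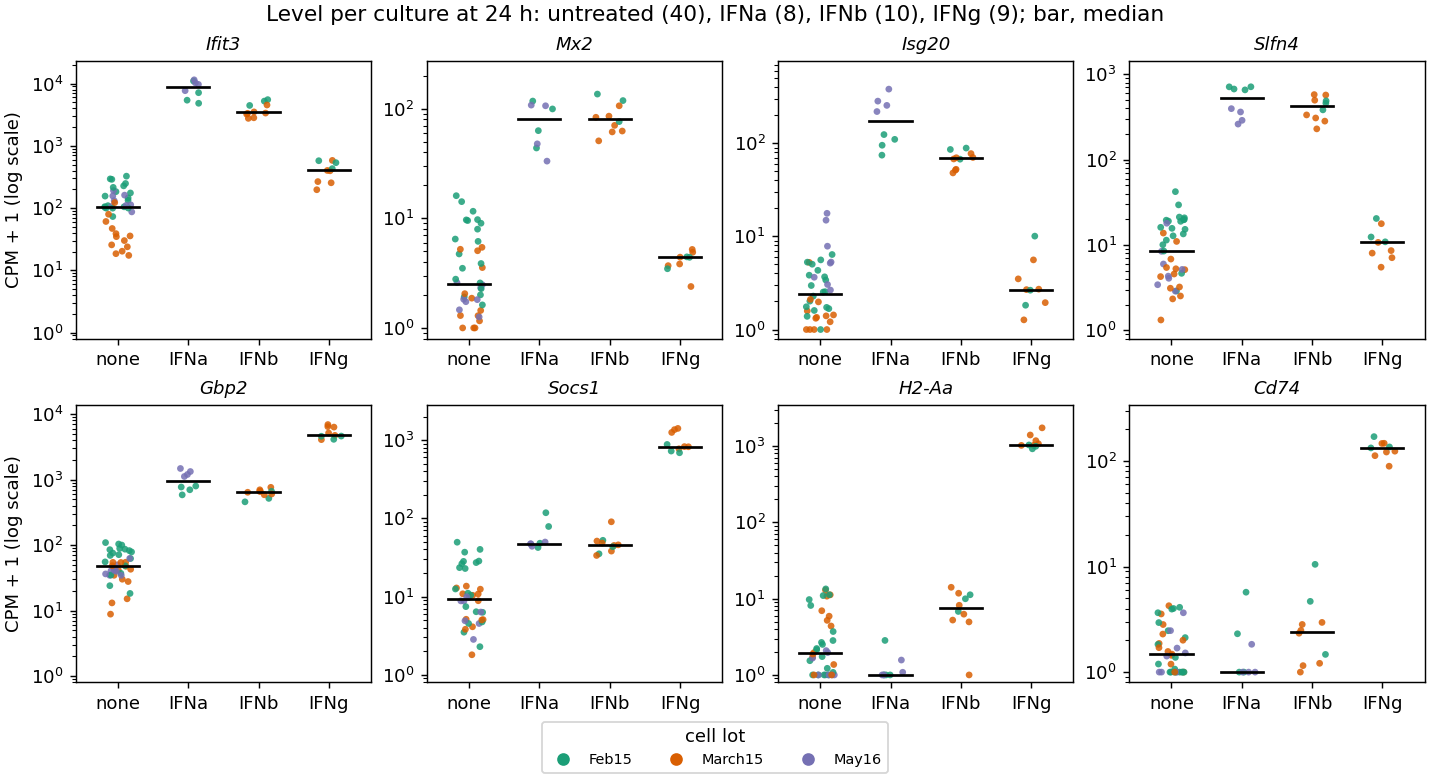
CPM + 1 (log axis) per culture at 24 h for 8 genes without stimulus (40), with IFNa (8), IFNb (10) or IFNg (9), coloured by cell lot, with the median as a bar. Mx2, Isg20 and Slfn4 are high with IFNa and IFNb and near the untreated level with IFNg, while H2-Aa and Cd74 are high with IFNg only among these groups, and Gbp2 and Socs1 are raised by all 3 and most by IFNg.

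At 72 h IFNb was given to 4 cultures, and all of these were from plate MGm160930B and lot May16, so that time and lot cannot be told apart. The untreated cultures of 72 h were of that lot too, and 1 of them stood apart in interferon genes, with Ifit3 at 1538 CPM against at most 187 CPM in the other 24. At 72 h 404 genes were higher (3.3% of 12240 tested) and 501 lower (4.09%), or 398 (3.26%) and 508 (4.16%) without that culture. Of the 567 genes called higher at 24 h 313 were called higher at 72 h as well, and of the 920 called lower 262. At that time 32 of 37 antiviral genes tested were higher (median 2.87), all 5 ISG15 genes, 17 of 22 class I genes and all 10 PARP and nuclear body genes, and without that culture 30 antiviral and 19 class I genes. Ifit3 was at 5001, 5860, 4331 and 3968 CPM in the 4 cultures. By a test of the difference, the log2 change at 24 h lay above that at 72 h for 50 genes (0.408% of 12240 tested). It lay below for 20 (0.163%), where a deeper fall at 24 h also counts. Chemokines were called higher for 9 of 13 at 24 h and for 3 of 13 at 72 h, and the difference passed for 2 of the 13.

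Ccl2 was one of these, with IFNb cultures of 72 h at 10.1, 19.8, 13.3 and 15 CPM inside the untreated range of 0 to 46.2 CPM (difference 3.51, SE 0.63, limma adjusted p = 2.62e-04), a call lost with no plate term (1.35, limma adjusted p = 0.601). Il1rn was at 5.76, 0.934, 4.99 and 4.67 CPM at 72 h against 115 to 699 CPM at 24 h, and its untreated median was 1.28 CPM at 72 h and 19.3 CPM at 24 h (difference 3.58). In May16 cultures at 24 h it was at 12.1 to 24.3 CPM untreated and 33.3 to 61.5 CPM with IFNa, with no overlap between them. Melk had opposite signs, 2.06 at 24 h and -2.67 at 72 h. Klrk1 (difference 4.44), Ms4a4b (4.20) and Gbp6 (3.92) were at most 2.33, 4.95 and 7.54 CPM in the IFNb cultures of 72 h, and were low in May16 cultures at 24 h as well: Klrk1, an activating receptor of lymphoid and myeloid cells, reached 2.20 to 10.8 CPM with IFNa in May16 and 118 to 215 CPM in Feb15. Of the 50 genes 10 were under 5 CPM in every May16 culture, as were 283 of the 11988 genes tested with the other interferons. The other direction held Exosc9 (-3.21), Cd69 (-2.81), Hal (-2.52), Olfml3 (-2.15), Sgk1 (-1.86) and Ptgfrn (-1.84). Cd69, an early activation marker, was at 25.1, 21, 22.7 and 16.4 CPM with IFNb at 72 h and at no more than 6.52 CPM at 24 h. With IFNa at 24 h it reached 22.5 to 65.2 CPM in lot May16 and 0 to 17.3 CPM in lot Feb15.

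Single genes marked the May16 lot without any stimulus. Ifi202b, a DNA-binding member of the Ifi200 cluster, was at or below 0.432 CPM in all 41 May16 cultures. In the other lots it was at 21.7 to 115 CPM untreated and 264 to 672 CPM with IFNb at 24 h. Pyhin1 was at 37.7 to 86.1 CPM in untreated May16 cultures at 24 h and at 0 to 12.4 CPM in those of the other lots, whereas untreated May16 cultures at 72 h ran from 2.50 to 373 CPM. With interferon in lot May16 it was at 1381 to 2173 CPM (IFNa, 24 h) and 1211 to 1532 CPM (IFNb, 72 h). In the other lots it was at 77.1 to 140 CPM (IFNa) and 58.8 to 167 CPM (IFNb) at 24 h. In untreated cultures at 24 h, 56 of 11988 genes lay wholly lower in May16 than in the other lots and 35 wholly higher. All 8 untreated May16 cultures of 24 h were on plate MGm161010B, so that lot and plate cannot be told apart at that time.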

How the data were processed

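RNA was read as 3′-end tags (QuantSeq, sequenced as 75-base reads). The authors mapped reads with salmon 0.7.1 and removed cultures with few reads or few genes, which left 784 cultures. They deposited CPM, which their text calls TPM, with no length correction. The labels name mm8 and the methods Ensembl build 81. Positions here are GRCm38. The table lists 45581 genes. 688 culture columns and the in vivo table were not used. Low values were not whole reads (72.6 to 86.3% within 0.1 read), so no count test was run.

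Genes above 5 CPM in at least 4 cultures were tested by limma 3.58.1 (R 4.3.3) on log2(CPM + 1) with plate as a block and Benjamini-Hochberg adjustment, called at adjusted p under 0.05 and a log2 change of at least 1. Fold changes are on that scale and understate low genes. A gene near 0 without stimulus can pass the filter only if stimulated cultures lift it. On simulated data 190 of 200 genes changed by 2 on the log2 scale were recovered, with 8 false calls. Genes were named by rule: the 15 largest rises and 10 largest falls among called genes with a mean of at least 10 CPM in the higher group, unnamed models left out; per list the 3 largest changes and the highest gene; a few fixed genes; and the 6 largest differences per direction from IFNa, IFNg and 72 h. Other genes in the text are list members named after their values were seen. The members and lists were chosen with earlier results of these data known. A few genes of the lists are not reported here by name.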

Additional observations from a re-analysis of the deposited data

Results flagged for a closer look

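Among 30 genes looked at for a single culture that stands apart among the 10 IFNb cultures at 24 h, Phf11a had 1: replicate 5 was at 798.4 CPM, and the gap to its nearest neighbour was 0.547 of the whole range (critical value 0.466). Chance gives such a gap in about 1 in 20 groups.

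The genes named by rule for 24 h against 72 h were taken from those that passed the test of the difference. That they pass was therefore set by the choice, and the values give only the size. The log2 change at 24 h minus that at 72 h was 4.727 for Melk, 4.435 for Klrk1 and 4.202 for Ms4a4b. It was 3.919 for Gbp6, 3.582 for Il1rn and 3.509 for Ccl2. The differences were -3.213 for Exosc9, -2.812 for Cd69, -2.516 for Hal, -2.153 for Olfml3, -1.863 for Sgk1 and -1.838 for Ptgfrn. Time and cell lot cannot be told apart in these values. With no plate term the calls were lost for Melk (2.58), Ccl2 (1.35), Exosc9 (-1.63), Hal (-0.99), Sgk1 (-1.21) and Ptgfrn (-1.46). The call was also lost for Exosc9 without IFNb replicate 3 of 72 h (-2.99), and for Ptgfrn without replicate 1 (-1.66), 2 (-1.84) or 3 (-1.91), without untreated replicate 10 of 72 h (-1.72) and with a pseudocount of 5 (-1.17).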

How the results depend on the processing

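For IFNb against untreated at 24 h, genes higher numbered 966 with no minimum fold change and 372 by the exact rank-sum test, beside 567. Genes lower numbered 356 with a pseudocount of 5, 1962 with no minimum, 560 with plate means as replicates and 169 by rank-sum, beside 920. For IFNb against IFNa, genes higher numbered 124 without plate in the model, 8 in lot Feb15 alone and 30 without lot May16, beside 17. Genes lower numbered 39, 8 and 13 in those settings and 9 with a pseudocount of 5, beside 3. For IFNb against IFNg, genes higher numbered 605 with no minimum, and genes lower 302 with a pseudocount of 5, 748 with no minimum and 292 on shared plates. For 24 h against 72 h without plate in the model the counts were 27 and 31, and with a pseudocount of 5 genes lower were 31. Leaving out 1 IFNb culture of 72 h in turn gave 35 to 44 genes higher and 13 to 16 lower, the lowest without replicate 3, and leaving out untreated culture 10 of 72 h gave 49 and 19. The cause was not tested.

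The median of all genes tested moved from -0.199 to -0.136 with a pseudocount of 5, -0.113 with centred cultures and -0.03 with no filter on low values. Of values for named genes 1925 kept their call and direction, 65 lost the call, 18 gained it and 13 changed sign. The last were for genes not called, Cd68 (-0.054 with pool as block, -0.035 without MGm160926A), Il1b (0.461 with pool, 0.008 centred, 0.130 without MG160901, 0.139 in middle wells, 0.009 without the IFNb edge well), Naaa (-0.092 without MG160901, -0.042 in middle wells) and Ptpn1 (0.004 centred, 0.111 without MG160901, 0.173 in middle wells), and for Hal against IFNa (1.532 without plate). Alternatives with middle wells, without the edge well, with plate means, with lots or shared plates, without untreated culture 10 of 72 h, or with IFNa and IFNg in the fit (581 higher, 918 lower) were chosen after seeing the data. A fit over all stimuli at 24 h was not run. No paired analysis was possible because the replicate numbers were given in accession order, and plate is the block in the fit. Depth limits genes near 5 CPM, where 1 read is a large share of the value.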
